A study of Rattus norvegicus with 10 samples.

Results

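Broad m6A peaks, here those wider than 2000 bp, were examined in neonatal rat cardiomyocytes with and without serum. N6-methyladenosine (m6A) is a methyl mark that the METTL3-METTL14 complex writes on adenosines of messenger RNA, that FTO and ALKBH5 can remove and that YTH-domain proteins read. It is known to gather in long internal exons and around stop codons, and in cardiomyocytes it has been studied as a regulator of growth. In MeRIP-seq, fragmented RNA is captured with an m6A antibody and sequenced, and the peak caller merges neighbouring enriched windows into 1 interval, so a wide peak is an unbroken stretch of enrichment and not a single methylated base.

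The cells were primary cardiomyocytes from rat pups 1 to 3 days old, kept in M199 medium, and no genetic change or other agent is named for any group. Hypertrophic cells had 2% bovine serum and quiescent cells were serum-free. The series lists 10 libraries in 5 groups of 2, namely input and m6A immunoprecipitate (IP) of each condition and a normal IgG control taken from hypertrophic cells. The files hold 1 peak list and 1 summit list for each condition, both called against the IgG control, so no value below has an error between cultures, and pooling of the 2 IP libraries is a point not given in the sources used here. Whether a litter or several animals made up a culture is not stated either. Peaks carry positions of the rat build rn4 but no strand and no gene name, so regions are named by position, exon and intron were not assigned, and the cardiomyocyte label could not be set against marker genes. No rn4 sequence was at hand, so none is shown.

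Peaks were taken as broad when their width was above 2000 bp and their deposited score was below 3100, a value at which many scores of both lists stop. The rule kept 638 of 65539 hypertrophic peaks and 626 of 68440 quiescent peaks, 1264 of 133979 in all. They were 0.973% and 0.915% of the peaks but 5.77% and 5.49% of the bases inside peaks of their list. A further 65 hypertrophic and 103 quiescent peaks were as wide but scored 3100 or more and are not members. Because the members were chosen by width and score, both are given as description only. The score is the peak caller's own ranking of a peak against the control, and the summit height is the number of reads piled up at the peak's highest base, with no scaling stated. The control was IgG and not the input libraries, so how far width and height follow the amount of RNA at a locus was not tested.

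Most broad peaks were not far above the bound. The median width was 2413.5 bp in the hypertrophic list (quartiles 2165 and 2882 bp). In the quiescent list it was 2500.5 bp (quartiles 2205 and 3021 bp). Widths up to 2500 bp took in 357 hypertrophic and 313 quiescent members, and 42 and 53 members exceeded 4000 bp. The hypertrophic members closest to the bound were 2 of 2003 bp, with scores of 704.4 and 1517 and heights of 114 and 124, and those just outside measured 2000 and 1999 bp, with scores of 2626 and 140.9 and heights of 149 and 140. In the quiescent list 2 members of 2001 bp scored 339.4 and 1199 with heights of 92 and 104, against excluded peaks of 1997 and 1995 bp that scored 1840 and 626.3 with heights of 130 and 71. At the score bound, the highest member scores were 3070 and 3070 in the hypertrophic list and 3053 and 3041 in the quiescent list, and the nearest excluded peaks scored 3100.

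Scores spread over the whole allowed range. They ran from 50.1 to 3070 with a median of 631.9 among hypertrophic members and from 51.0 to 3053 with a median of 615.8 among quiescent members. Scores below 200 belonged to 134 hypertrophic (21.0%) and 126 quiescent members (20.1%). A wide peak was thus not always a high-scoring one.

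Summits of the broad peaks were tall. The median summit height was 119 in hypertrophic members, with quartiles of 88.2 and 145, and 118.5 in quiescent members, with quartiles of 89 and 146. Over all peaks the medians were 18 and 16, and over peaks wider than 1000 and up to 2000 bp that scored below 3100, called peaks of 1000 to 2000 bp below, they were 83 and 73. Heights of 150 or more occurred in 122 of 638 hypertrophic members (19.1%, Wilson 95% interval 16.3 to 22.4%) and in 127 of 626 quiescent members (20.3%, interval 17.3 to 23.6%), against 1.10% and 0.910% of all peaks. These intervals, like the others below, cover counting error only. The largest height in either list, 164, was that of 17 hypertrophic (2.66%) and 21 quiescent members (3.35%), and no summit stood higher. Over all peaks the share at 164 can be no more than the 1.10% and 0.910% at 150 or more. At the low end, 41 hypertrophic (6.43%) and 46 quiescent members (7.35%) had heights of 50 or less, down to 14 and 12. Most of all peaks were that low, given their medians of 18 and 16.

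Height and score were nearly unrelated within the broad peaks. Across the 638 hypertrophic members Spearman's rho between them was -0.11, and across the 626 quiescent members it was -0.11. Across all peaks of a list it was 0.65 and 0.64, and across peaks of 1000 to 2000 bp it was 0.01 and -0.04. Members and peaks of 1000 to 2000 bp are bounded in width and score, and all peaks of a list are not. The part of these bounds in the lower values was not tested. Between width and height rho was 0.19 among hypertrophic and 0.16 among quiescent members. Across all peaks it was 0.58 and 0.57, and across peaks of 1000 to 2000 bp it was 0.21 and 0.24. Members were chosen by width, so their tall summits are not separate from this link over all peaks. These are descriptions across peaks of 1 list, which share libraries and a control, and peaks are not independent replicates. The plot of score against height shows tall summits down to the lowest scores. Of members scoring below 100, 36 of 54 hypertrophic and 40 of 53 quiescent peaks had heights of 100 or more, or 66.7% and 75.5%. Among peaks of 1000 to 2000 bp in the same score range the shares were 36.7% and 33.0%. Most members were this tall at higher scores too. The median height of hypertrophic and quiescent members was 125 and 126 at scores below 200. From a score of 800 to the bound it was 116 and 113. Heights of 100 or more were thus not a trait of low-scoring members alone.

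**Figure D1:**
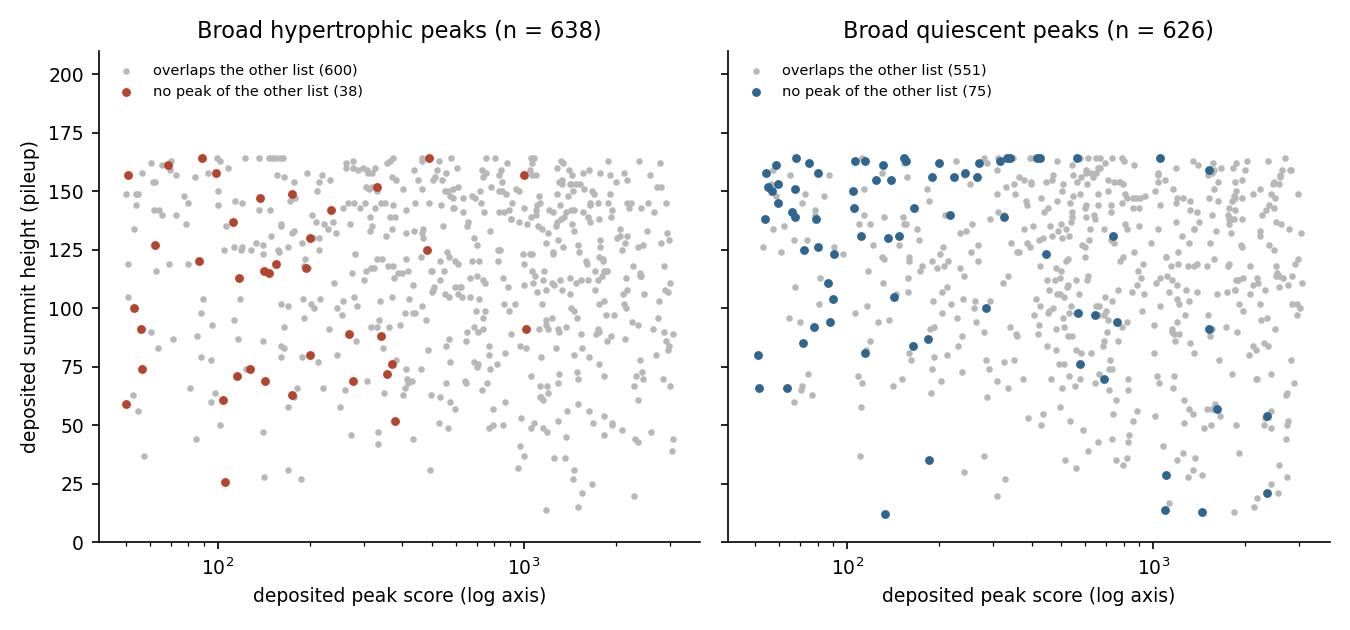
Each point is 1 broad peak, with its deposited score on a log axis and its deposited summit height, for the hypertrophic (left, n = 638) and the quiescent list (right, n = 626); coloured points have no peak of the other list. Points reach the height of 164 at scores below 200, from 200 to 800 and above 800. The 2 highest-scoring members of each list are lower, at 89 and 44 (hypertrophic) and 111 and 132 (quiescent). The coloured quiescent points gather at low scores and large heights, with a median height of 139.

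Summits lay almost anywhere within a broad peak. The median distance of the summit from the nearer edge was 27.4% of the width in hypertrophic and 29.0% in quiescent members, against 38.2% and 38.0% over all peaks, where 50% would be the exact centre. In base pairs the medians were 703 and 761. The central bins, from 40 to 60% of the width, held 11.1% and 10.2% of the hypertrophic members and 12.1% and 12.5% of the quiescent members. Among all hypertrophic peaks the same bins held 25.5% and 19.0%, and among all quiescent peaks 25.1% and 18.5%. Peaks of 1000 to 2000 bp were much closer to the members, with 13.8% and 13.3% (hypertrophic) and 13.5% and 12.8% (quiescent), and their median distance from the nearer edge was 30.9% and 31.1% of the width, so much of this flat profile was shared by the next narrower class. The outermost 10% on the left held 3.92% of hypertrophic and 3.99% of quiescent members and the outermost 10% on the right held 6.11% and 6.39%. Left and right are by genome coordinate, since the peaks have no strand.

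**Figure D2:**
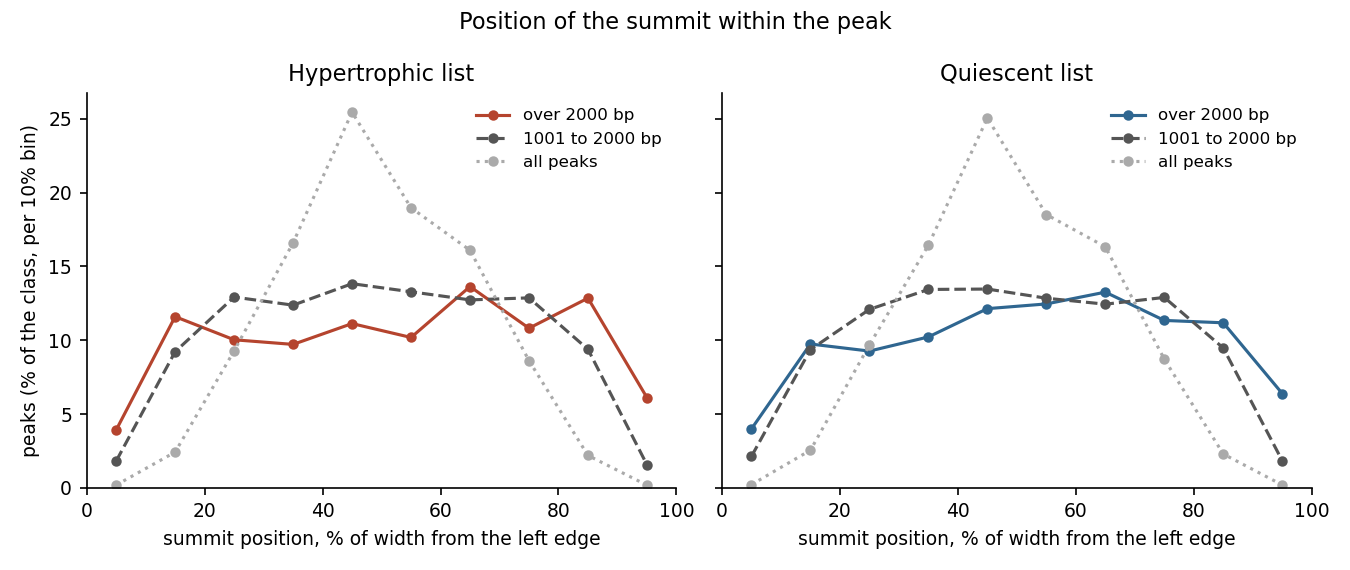
Share of peaks by the position of the summit along the peak, in bins of 10% of the width from the left edge, for each list; the solid line is for members, the dashed line for peaks of 1000 to 2000 bp scoring below 3100 and the dotted line for all peaks. The solid lines are flat, with 9.72 to 13.6% of hypertrophic members in each bin from 10 to 90%, while the dotted lines are highest at the centre; the dashed lines, with 13.8% and 13.5% from 40 to 50%, are nearer to the solid ones.

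Broad peaks were usually present in the other condition. A peak of the quiescent list overlapped 600 of 638 hypertrophic members by at least 1 bp (94.0%, Wilson interval 91.9 to 95.6%), where all hypertrophic peaks stood at 74.2%. A hypertrophic peak overlapped 551 of 626 quiescent members (88.0%, interval 85.2 to 90.3%), where all quiescent peaks stood at 71.0%. A wider peak has more room to meet another, so these shares are also set beside peaks of 1000 to 2000 bp, of which 91.1% and 91.7% overlapped the other list. The overlap reached most of the width. The median member was covered to 98.0% (hypertrophic) or 97.2% (quiescent), and coverage was 90% or more in 478 and 435 members. Lowering the width bound to 1500 bp gave 1564 hypertrophic and 1523 quiescent peaks, of which the members were the smaller part. Median coverage in these sets was 97.2% and 96.8%, so high coverage was not particular to peaks over 2000 bp. Overlap varied little with width among hypertrophic members, from 92.9% of the 42 over 4000 bp to 94.5% of the 91 of 3000 to 4000 bp. Among quiescent members it was 89.1% of the 313 up to 2500 bp and 83.0% of the 53 over 4000 bp.

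When joined across the lists, the members made 843 loci. A broad peak of both lists lay in 420 of them, 218 were broad only in the hypertrophic list and 205 only in the quiescent list. At 1 locus a hypertrophic member met 2 quiescent members. Of the 218 hypertrophic members without a broad partner scoring below 3100, 32 faced a quiescent peak that was as wide but scored 3100 or more, 98 faced a single peak of 2000 bp or less, 50 faced 2 or more such peaks and 38 faced none. The corresponding numbers for the 205 quiescent members were 9, 74, 47 and 75. Facing a single shorter peak, the partner was often close to the bound, with a median width of 1687 bp (quiescent partner) and 1715.5 bp (hypertrophic partner). The median member of that class measured 2135.5 bp (hypertrophic) and 2166.5 bp (quiescent), of which the partner covered 74.2% and 70.3%.

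**Figure D3:**
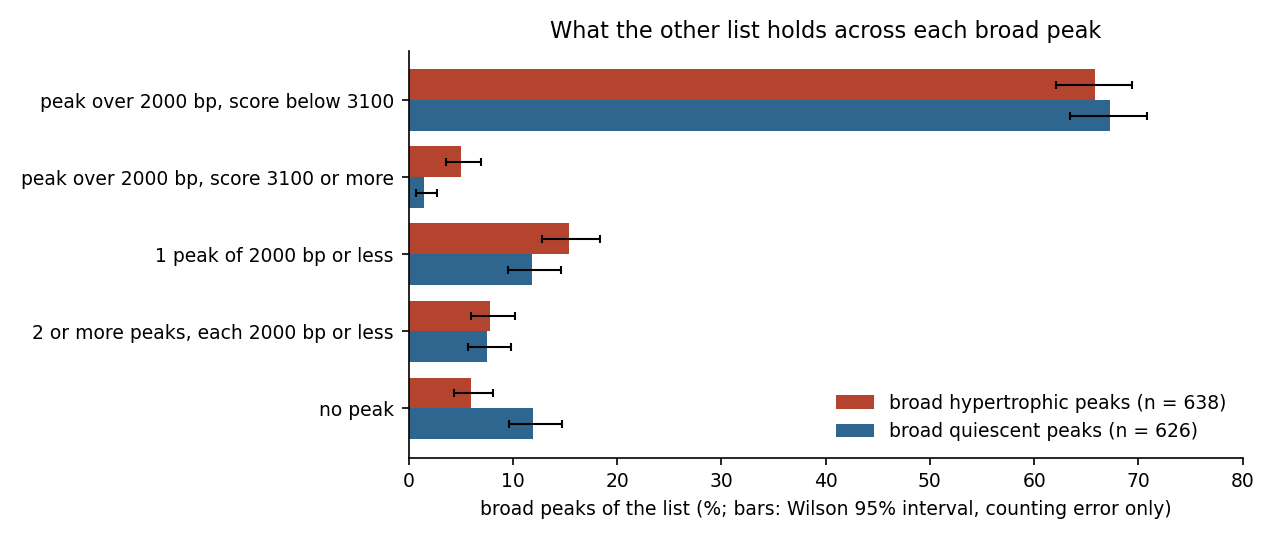
Share of the broad peaks of each list by what the other list holds across them; bars give the percent of 638 hypertrophic and 626 quiescent members and whiskers the Wilson 95% interval. A broad peak scoring below 3100 faced 65.8% of hypertrophic and 67.3% of quiescent members, and no peak faced 5.96% and 12.0%.

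In the 420 one-to-one pairs of broad peaks, most edges lay close. The left edges differed by a median of 34 bp and the right edges by a median of 34 bp, on intervals of over 2000 bp. The median signed differences, quiescent minus hypertrophic, were 1 bp on the left and 0 bp on the right, so neither list ran wider on 1 side. The quiescent peak was the wider one in 214 pairs and the hypertrophic one in 204. Both edges lay within 100 bp of each other in 245 of 420 pairs (58.3%, Wilson interval 53.6 to 63.0%). Over all one-to-one pairs of peaks this share was 72.3%, and over pairs of 1000 to 2000 bp it was 65.5%, so a smaller share of the broad pairs matched at both ends. In 145 pairs only 1 of the edges was within 100 bp and in 30 neither was. Where 1 edge had moved, it did so by a median of 271 bp, it was the left edge in 74 of the 145 pairs, and the quiescent peak was the wider one in 77. The wider peak of the pair had a median width of 2441 bp in the 245 pairs with both edges close, against 2956 bp in the other 175. An edge difference can itself add to the wider width, so this contrast is partly built in. Both edges were never identical to the base pair in the same broad pair, although the left edge was in 14 pairs and the right edge in 19.

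The pairs with the closest edges were as follows. On chromosome 8 a hypertrophic peak from 113851168 to 113853682 and a quiescent peak from 113851167 to 113853682 differed by 1 bp on the left only, with heights of 136 and 129 and low scores of 78.5 and 73.7. On chromosome 1 the peaks from 2568068 to 2570102 and 2568068 to 2570101 had heights of 130 and 134 and scores of 214.0 and 377.5. On chromosome 8 from 59803890 to 59806606 the quiescent left edge was 2 bp further in and the summits coincided, yet heights were 108 and 72 and scores 1330 and 665.5. Pairs on chromosome 5 from 163607045 to 163609370 and on chromosome 19 from 36047510 to 36049525 also had edges within 2 bp in sum, with quiescent heights of 105 and 124 against 113 and 132. Close edges thus occurred at scores from 73.7 to 1330.

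The pairs with the largest edge differences overlapped only in part. On chromosome 1 a hypertrophic peak from 220626464 to 220631213 (4750 bp, height 103, score 1828) met a quiescent one from 220625276 to 220628019 (2744 bp, height 30, score 241.5). On chromosome 7 the hypertrophic peak ran from 136848244 to 136850883 and the quiescent one from 136850140 to 136852472, with heights of 147 and 107. On chromosome 13 they ran from 48444197 to 48446468 and from 48442670 to 48444682, with heights of 98 and 68. In all 3 pairs the quiescent summit was the lower, but the paired summits were not at 1 site. Their positions, quiescent minus hypertrophic, differed by -2548, 820 and -2402 bp. Across the chromosome 1 hypertrophic peak lay another quiescent peak, 61 high, with its summit 3 bp from the hypertrophic one.

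Summits of the 420 pairs had a smaller median difference than edges but a longer tail. The median distance between paired summits was 8.5 bp, it was 0 in 33 pairs and within 100 bp in 330 (78.6%, Wilson interval 74.4 to 82.2%), where all one-to-one pairs stood at 88.6% and pairs of 1000 to 2000 bp at 81.5%. Within 500 bp lay 86.0% of the paired summits, 91.2% of the left edges and 92.6% of the right edges. In 108 pairs (25.7%) the summits were further apart than either edge. In 29 pairs (6.90%, interval 4.85 to 9.74%) it exceeded 1000 bp, a distance that is possible only in long peaks and was passed by 0.850% of pairs of 1000 to 2000 bp. Counted over single members, whether or not they had a broad partner, a summit of an overlapping peak of the other list lay within 100 bp of the member's own in 477 of 638 hypertrophic (74.8%) and 435 of 626 quiescent members (69.5%), against 65.2% and 62.4% of all peaks.

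**Figure D4:**
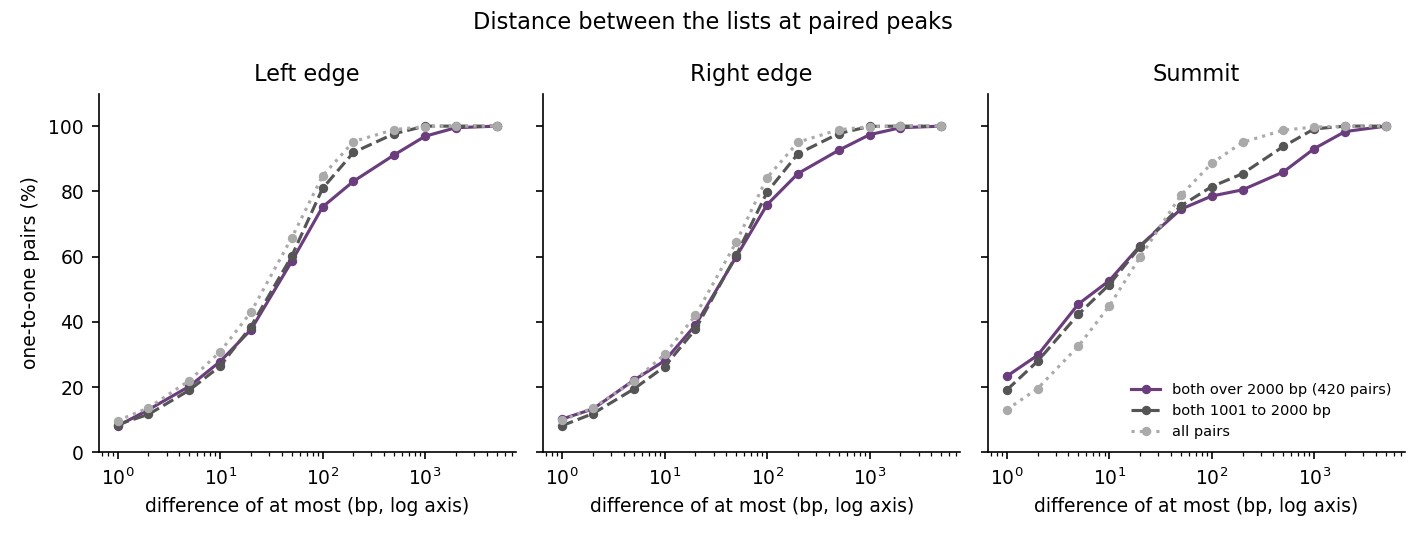
Share of one-to-one pairs whose left edges, right edges or summits differ by at most the distance on the log axis, for pairs in which both peaks are broad (solid, 420 pairs), both measure 1000 to 2000 bp (dashed) or for all pairs (dotted). For broad pairs the left edge was within 100 bp in 75.2%, the right edge in 76.0% and the summit in 78.6%, and from there to 1000 bp the solid lines run below the others.

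Heights at paired broad peaks were similar in the lists, and scores less so. The quiescent height was a median 0.969 times the hypertrophic one, with quartiles of 0.906 and 1.01, and it was within 1.25 times in 382 of 420 pairs. The hypertrophic summit was the taller one in 278 pairs, the quiescent one in 110 and they were equal in 32. Scores ran the other way, with a median quiescent to hypertrophic ratio of 1.21 and a higher quiescent score in 270 pairs. In pairs of 1000 to 2000 bp the median score ratio was 1.06. Scores differed by at least 2 times in 108 pairs, of which 73 were higher in the quiescent list. Both peaks of a pair had to score below 3100. That left out 32 hypertrophic members whose broad quiescent partner scored 3100 or more, and 9 quiescent members the other way. The score values thus describe these pairs only, and the effect of the bound on them was not tested. On the log2 scale the median height ratio was -0.04 for broad pairs and -0.11 for pairs of 1000 to 2000 bp. Heights of both lists end at 164, which bounds how far 2 tall summits can differ. The part of this ceiling in the similar heights was not tested. Neither scale is stated to be comparable between the lists, so a common shift in either cannot be told apart from the library depths.

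Splitting of a broad peak into several peaks of the other list was uncommon. A member spanned 2 or more narrower quiescent peaks in 72 of 638 hypertrophic cases (11.3%, Wilson interval 9.06 to 14.0%), against 1.11% of all hypertrophic peaks, and 2 or more narrower hypertrophic peaks in 65 of 626 quiescent cases (10.4%, interval 8.23 to 13.0%), against 1.14% of all quiescent peaks. Among peaks of 1000 to 2000 bp the shares were 6.78% and 6.75%, and among members over 4000 bp they were 21.4% and 22.6%. Counting every member, 272 hypertrophic ones spanned no narrower peak, 294 spanned 1, 70 spanned 2, 1 spanned 3 and 1 spanned 4. For quiescent members the numbers were 281, 280, 60, 4 and 1. Members with none include those of no overlap and those whose partner was as wide or wider.

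The pieces filled most of the broad peak. Members that spanned 2 or more narrower peaks had a median coverage of 95.5% (hypertrophic) and 95.2% (quiescent). The gaps between neighbouring pieces had a median of 45 bp in the quiescent list (75 gaps) and 43 bp in the hypertrophic list (71 gaps), and 67 and 64 of them measured 200 bp or less. When peaks of the other list within 200 bp of each other were joined, the share spanning 2 or more fell to 1.25% of hypertrophic and 1.12% of quiescent members. When only pieces wholly inside the broad peak were counted, it was 3.76% and 2.88%. At most of these loci the peaks of the other list were thus parted by short gaps.

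Among hypertrophic members, the one with the most narrower quiescent peaks lay on chromosome 11 from 37960365 to 37963714. It measured 3350 bp, scored 2171 and was 131 high, and the 4 quiescent peaks across it had heights of 126, 85, 34 and 26 from left to right, with its summit 23 bp from the nearest of theirs. On chromosome 3 from 105578192 to 105582748, a member of 4557 bp (score 2394, height 78) faced 3 quiescent peaks of 1383, 2468 and 654 bp, the middle one at a score of 3100 with a height of 82. On chromosome 5 from 79138544 to 79145525, the second widest hypertrophic member (6982 bp, score 1750, height 112) faced peaks of 1081 and 5826 bp and was covered to 98.9%. On chromosome 4 from 63911160 to 63916371 (5212 bp, score 188.0), the left one of 2 quiescent peaks had the same height, 128, and its summit 3 bp away. The fifth was the chromosome 1 peak from 220626464 described above, covered to only 46.1%.

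Among quiescent members, the one with the most narrower hypertrophic peaks lay on chromosome 8 from 81406558 to 81410018. It was a low pileup of 3461 bp that scored 2134 and stood only 15 high, and the 4 hypertrophic peaks across it were 10, 10, 16 and 15 high. A member on chromosome 7 from 120871227 to 120876994 (5768 bp, score 1951, height 126) faced 3 hypertrophic peaks, the longest of 3705 bp and 120 high, with summits 2 bp apart. On chromosome 2 from 22828300 to 22831827, 3 peaks of 1538, 918 and 600 bp with heights of 106, 23 and 18 lay under a member 95 high. On chromosome 3 from 92782083 to 92784764 a member 88 high faced peaks of 61, 78 and 18, and on chromosome 8 from 121299154 to 121301497 a member 50 high faced peaks of 12, 15 and 40. In each of these 5 regions the nearest summit of the other list lay within 126 bp of the member's own.

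**Figure D5:**
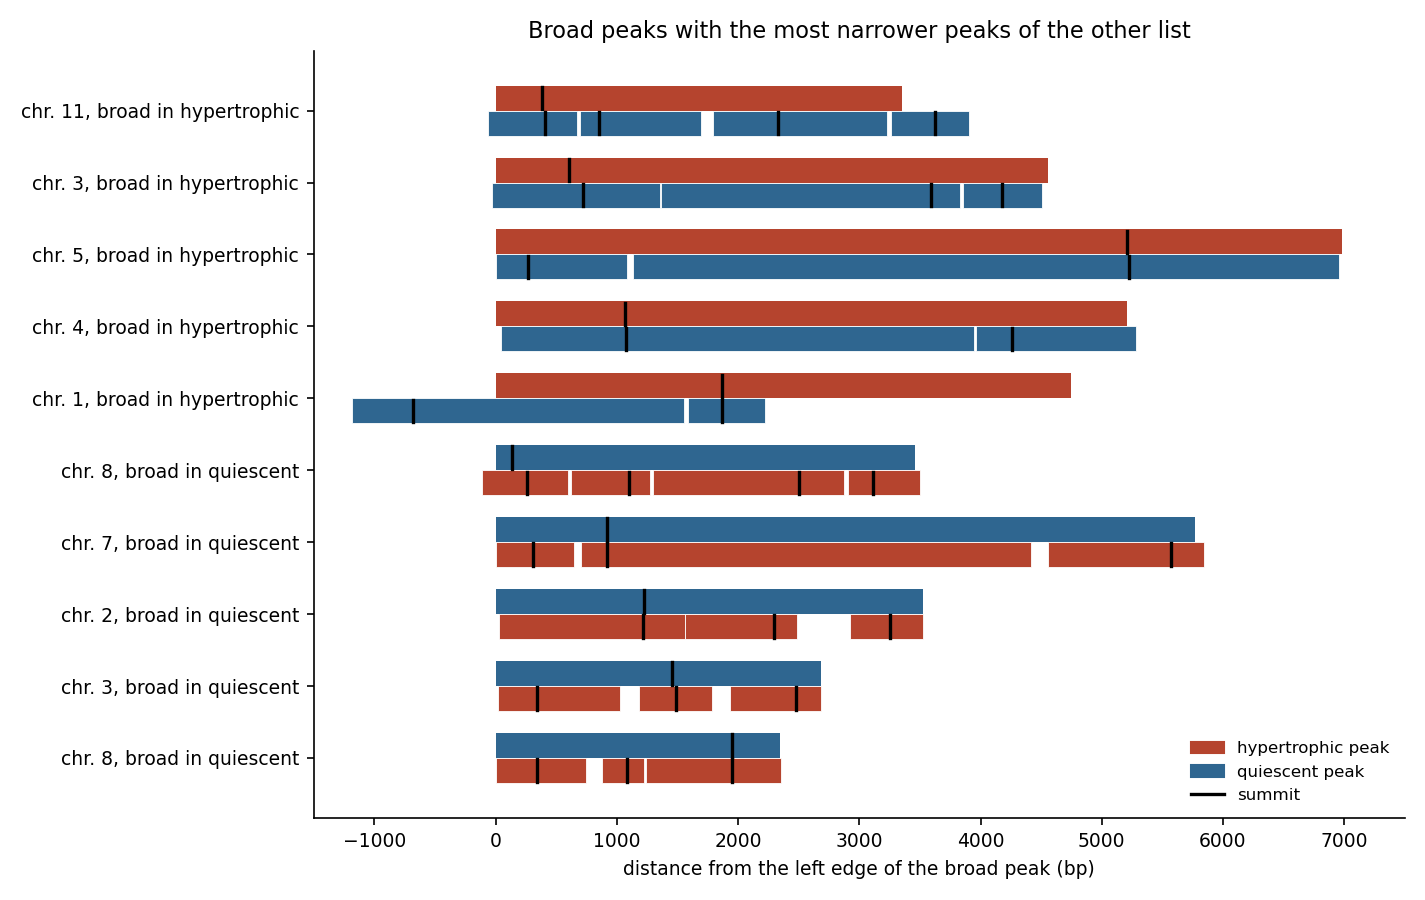
Map of the 5 hypertrophic and the 5 quiescent members that span the most narrower peaks of the other list; the upper bar of each pair is the broad peak, the lower bars are the peaks of the other list, black ticks are summits, and the axis is the distance in bp from the left edge of the broad peak. The lower bars cover 86.6 to 98.9% of the upper ones except for the chromosome 1 region, which is covered to 46.1%.

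The widest hypertrophic member stood apart from the rest. It lay on chromosome X from 81828797 to 81856385, measured 27589 bp, scored 486.5 and had its summit, 82 high, 517 bp from its left edge. The quiescent list held 1 peak of 27570 bp at the same place, from 81828821 to 81856390, with a score of 3100 and a summit 66 high that lay 8748 bp from the hypertrophic one. Its edges thus agreed within 24 bp on the left and 5 bp on the right, while only the hypertrophic peak fell under the score bound. The next widest member of either list was less than 10 kb long.

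Of the 5 widest hypertrophic members, 3 others were matched end to end by a single quiescent peak of about equal width. On chromosome 16 a hypertrophic peak of 6893 bp from 81165347 to 81172239 (height 159, score 306.9) faced a quiescent one of 6900 bp (height 158, score 648.9), with summits 32 bp apart. On chromosome 10 peaks of 6320 and 6300 bp, the hypertrophic one from 86915526 to 86921845, had heights of 162 and 157 but scores of only 60.6 and 240.1. On chromosome 3 peaks of 6120 and 6151 bp shared their left edge at 59408609, both reached the height of 164, and scored 122.5 and 651.3. Of the 17 hypertrophic members with a height of 164, the 3 widest were this one, an unmatched one on chromosome 1 described below and one on chromosome 5 from 136066352 to 136070031, whose quiescent partner was 159 high.

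Members with no peak of the other list were more frequent among quiescent than among hypertrophic broad peaks. They were 75 of 626 quiescent members (12.0%, Wilson interval 9.67 to 14.8%) and 38 of 638 hypertrophic members (5.96%, interval 4.37 to 8.07%), and how this would vary between cultures was not tested. Over all peaks the shares were 29.0% in the quiescent and 25.8% in the hypertrophic list, and over peaks of 1000 to 2000 bp they were 8.34% and 8.86%, the other way round. Most unmatched members scored low, with medians of 147.4 (quiescent) and 144.8 (hypertrophic), and 46 and 25 of them scored below 200. In that score range 80 of 126 quiescent members (63.5%) and 109 of 134 hypertrophic members (81.3%) had a partner, while for peaks of 1000 to 2000 bp in the range the order was the other way, at 76.6% and 72.1%. From 800 to the bound, 242 of 251 quiescent and 272 of 274 hypertrophic members had one.

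Low score did not mean a low pileup at these loci. Unmatched quiescent members had a median height of 139, with quartiles of 93 and 158, and 31 of 75 were 150 or higher. Unmatched hypertrophic members had a median height of 114, with quartiles of 74 and 141, and 7 of 38 were 150 or higher. Among members scoring below 200, the median height was 140 for 46 unmatched and 120.5 for 80 matched quiescent peaks, and 115 for 25 unmatched and 126 for 109 matched hypertrophic peaks. The nearest peak of the other list was over 1000 bp away for 66 of 75 quiescent and 27 of 38 hypertrophic members. Since both lists were called against IgG from hypertrophic cells, and the pileup of the other condition is not in the files where no peak was called, the part of the control in these differences was not tested.

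The 2 widest quiescent members were both unmatched. The widest, on chromosome 3 from 49477208 to 49487107, measured 9900 bp, scored 1048 and reached the height of 164, with the nearest hypertrophic peak 13099 bp away. The next, on chromosome 5 from 51439920 to 51447606, measured 7687 bp and was 138 high but scored 79.3. An unmatched member on chromosome 14 from 49294927 to 49301500 (6574 bp) was 92 high and scored 77.9. Among the 21 quiescent members with a height of 164, one on chromosome 9 from 32931273 to 32936856 was 5584 bp wide, had a score of 427.7 and was 4211 bp away from the closest hypertrophic peak.

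The highest-scoring unmatched members had no common height. In the quiescent list they were a peak of 2375 bp on chromosome 4 from 4632120 (score 2358, height 21), one of 5537 bp on chromosome 12 from 28500847 (score 2349, height 54) and one of 2045 bp on chromosome 1 from 186319611 (score 1616, height 57). In the hypertrophic list they scored lower and stood taller. The first, on chromosome 2 from 200273491 to 200276684, scored 1019, was 91 high and lay 1283 bp from the nearest quiescent peak. One on chromosome 1 from 155995598 to 155998409 scored 1004 with a height of 157, and one on chromosome 1 from 35061309 to 35066220 (4912 bp) scored 490.8 with a height of 164, at distances of 28336 and 11301 bp.

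Broad peaks were scattered over chromosomes 1 to 20 and X. They made up 0.530% (chromosome 15) to 1.30% (chromosome 8) of the hypertrophic peaks of a chromosome and 0.637% (chromosome 11) to 1.17% (chromosome 8) of the quiescent peaks. Another broad peak of the same list lay within 10 kb of 22 hypertrophic (3.45%) and 29 quiescent members (4.63%). Broad peaks are few in each list, and whether they lay closer or further apart than their number alone would give was not tested. A peak of any width of the same list lay within 1000 bp of 151 hypertrophic (23.7%) and 152 quiescent members (24.3%), against 22.1% and 22.9% over all peaks. For peaks of 1000 to 2000 bp that share was 30.0% in both lists.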

How the data were processed

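Per the submitters' processing notes, CASAVA 1.8, TopHat, MACS 1.4 and the build rn4 were used, without parameters. The authors deposited 1 peak list and 1 summit list per condition: a peak score (column 5 of the peak lists) and a signal, the pileup height in whole numbers (column 5 of the summit lists). Library sizes were a point not given in the sources used here and depth is unknown beyond summit heights. The 10 libraries were grouped by their titles; 0 value columns were left out.

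Summits were joined to peaks by name, and every summit lay inside its peak. Starts are counted from 1. Lists were overlapped by at least 1 bp. Pairs are broad peaks that are each other's largest overlap. Shares carry Wilson 95% intervals. No test was made, because each condition is 1 list and width and score chose the members. Regions were named by rule: per list the 5 widest, the 5 spanning most narrower peaks, the 3 highest-scoring without a partner and the 3 tallest (ties by width), the 5 pairs with the closest and the 3 with the farthest edges, and 2 peaks on either side of each bound. Members, rules and classes were chosen with earlier results of these data known. Alternatives were other width and score bounds, overlap rules, joining of neighbours and edge tolerances. Code was tested on simulated lists. The versions were matplotlib 3.10.9, pandas 2.3.3, numpy 2.4.6 and scipy 1.17.1 under Python 3.11.15.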

Additional observations from a re-analysis of the deposited data

How the results depend on the processing

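Of 66 values recomputed under alternative settings, 46 stayed within the 95% interval of the reported value (for medians an exact binomial interval of the order statistics) or, for counts, within 1.5 times; 20 moved further. Counts follow the width bound: over 1500 bp there were 1564 hypertrophic and 1523 quiescent members, and over 3000 bp there were 133 and 158. Median heights were 108 and 105 with the lower bound and 128 and 126.5 with the higher one. Median coverage of hypertrophic members was 97.2% and 98.8% at those bounds. Over 3000 bp their summits lay a median 25.8% of the width from the nearer edge, and 53.3% of pairs had both edges within 100 bp. That share was 36.0% within 50 bp and 73.3% within 200 bp. With scores of at least 100 in both lists, 7.53% of hypertrophic and 7.85% of quiescent members spanned 2 or more narrower peaks. With the other list joined within 200 bp it was 1.25% and 1.12%, and with pieces wholly inside the member, an alternative chosen after seeing the data, 3.76% and 2.88%. Shares overlapping the other list stayed within their intervals under every setting run. Replicates could not be left out, because each condition has 1 list. No paired analysis was possible because the deposited lists carry no replicate numbers. Unknown depth and heights ending at 164 limit any comparison of levels.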
